A study of Mus musculus with 2 samples.

Results

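The genes described here encode the subunits of the proteasome and the proteins that activate, inhibit or assemble it. They were taken from the expression table of normal and diabetic (db/db) mouse liver as every gene whose symbol starts with Psm, a letter from a to g and a digit, which gave 39 of the 8551 listed genes. By symbol, 5 were core alpha subunits (Psma), 5 constitutive core beta subunits (Psmb), 3 inducible core beta subunits (Psmb8, Psmb9 and Psmb10), 5 ATPases (Psmc), 13 non-ATPases (Psmd), 4 activators (Psme), 1 an inhibitor (Psmf1) and 2 assembly chaperones (Psmg). The remaining gene, Psmc3ip, encodes a protein of meiotic recombination that was named for binding the product of Psmc3. It is no part of the proteasome and was kept apart from the ATPases. The subunit genes Psma3, Psma5, Psmb5, Psmb6, Psmc1 and Psmd2 and the chaperone genes Psmg2 and Psmg4 were not among the listed genes under these symbols.

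Liver mRNA was counted by digital gene expression tags in 1 library of wild type mice and 1 library of db/db mice. Both groups were males of 9 weeks on a C57BL/6 background, and livers were taken about 3 h into the light cycle. The db mutation disrupts the leptin receptor, so that db/db mice overeat, become obese and develop diabetes. The methods name a pair of suppliers for the mice without saying which group came from which, and whether the RNA of several mice was pooled is not given in the sources used here. With 1 library each, no difference can be checked against replicates, and genotype, mouse and library preparation cannot be told apart. Levels are given as TPM, the number of tags of a gene scaled to the clean tags of its library. One read was worth 0.0973 TPM in normal liver and 0.0740 TPM in diabetic liver, which correspond to 10278531 and 13508232 clean tags. Reads per member ranged from 15 to 2677 in normal and from 14 to 5840 in diabetic liver. Ratios are diabetic over normal, and their 95% exact (Clopper-Pearson) intervals cover counting error only. Of 7 hepatocyte markers 5 were listed, at 130 TPM or more in both libraries. Alb (albumin) was at 6801 and 6912 TPM in normal and diabetic liver, Ttr (transthyretin) at 257 and 239 TPM and Tat at 1763 and 1533 TPM, whereas Apoa1 was at 14668 and 2875 TPM and Cps1 at 130 and 317 TPM. Lepr, the mutated gene, was not analysed here.

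The proteasome is the main protease of the cytosol and nucleus and degrades proteins that were marked with ubiquitin. Its barrel-shaped core has outer rings of alpha subunits, which form the gate, and inner rings of beta subunits, some of which cut peptide bonds. The regulatory particle that caps the core has a base, whose ATPases unfold the substrate, and a lid, which removes the ubiquitin. Cells that meet interferon replace the cutting beta subunits by inducible ones, which favour peptides for display on MHC class I. In the liver, the proteasome takes part in the turnover of apolipoprotein B, of cytochrome P450 enzymes and of many regulators of metabolism.

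A gene is counted in this assay through a tag at a cutting site of DpnII, GATC, the one nearest to the 3′ end of its transcript. All 39 members had at least 1 such site in their RefSeq-matched GENCODE transcript (release M21, GRCm38). The expected tags of members on which the results turn are shown 5′ to 3′, with the DpnII site in capitals, to show what stands behind each count.
Psmb7: GATCtgtgtgttatcagcaa
Psmb10: GATCactgcagggggtgcca
Psmb4: GATCagtggctttgaatgaa
Psmb1: GATCtctgtggttaatttgt
Psmb2: GATCatgacaagatgtttaa
Psma6: GATCcttgatgcctgtgcct
Psmf1: GATCctccagactggagcct
Psmg3: GATCcggctgtgccaggtgt
Psme3: GATCccttccagctgagccc
Psme2: GATCcccaagattgaggatg
For 35 members no other gene was found with the expected tag at a DpnII site, so that Psmb7 and its inducible counterpart Psmb10 are told apart. These 35 include Psmc4, whose short tag was not searched for in other genes. The tag of Psme2 was also in Psme2b, and the tags of Psma4, Psmb3 and Psmd8 were in the predicted genes Gm19095, Gm14013 and others, so the values of these 4 genes are uncertain. The expected tag of Psmc4 was only 11 bases long, since its last site lay 11 bases from the end of the transcript. Whether other genes have this short tag is not known, so the value of Psmc4 is uncertain as well. The other 38 tags had 20 bases. How tags common to several genes were counted is not given in the sources used here. These tags were predicted from the transcripts, and the sequenced tags themselves were not analysed here.

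Taken as 1 list, the proteasome genes stood where the typical gene of these livers stood, but their groups went different ways. The median log2 ratio was 0.25 over the 39 members and 0.25 over all 8551 listed genes. At least 1.5-fold higher in diabetic liver were 12 members, 30.8%, against 34.4% of all listed genes, and at least 1.5-fold lower were 4 members, 10.3%, against 15.3%. With an FDR under 0.001 also required, in an exact binomial test that compares the reads of the 2 libraries and not the conditions, 12 members were higher and 3 lower (30.8% and 7.69%), against 22.9% and 8.19% of all listed genes. The member that lost its call was Psmd9, with 23 and 14 reads. Such a test passes more genes where reads are many, so genes of like level were compared too. With a mean of at least 10 TPM, 32.4% of 34 members were higher and 5.88% lower with this FDR. Of all genes at that level 34.6% were higher and 11.4% lower.

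Of the 12 higher members, 11 were subunits of the core or of the regulatory particle, while the 4 lower members were Psme3, Psmf1, Psmg3 and Psmd9, which activate, bind or help to assemble the particle. Over the 28 subunits of the 26S particle alone, 11 were at least 1.5-fold higher and 0 lower, 39.3% against the 34.4% of all listed genes for higher and 0 against 15.3% for lower. As deposited, the typical gene had a log2 ratio above 0. Tags on listed genes were also a larger part of the diabetic library, 44.4% against 37.1% in the normal library. Whether typical genes were higher in diabetic liver other than in this share was not tested. The 4 other scalings between the libraries took 0.25 to 0.31 off each log2 ratio. Scaling to the sum of the listed genes took off 0.26, near the median ratio of 0.25. Under the scaling by trimmed mean of M values (TMM), 4 members were at least 1.5-fold higher, against 24.0% of all listed genes, and 7 were lower, against 23.7%. Of the 28 subunits of the 26S particle, 3 were then higher and 3 lower. The 4 were Psmb1, Psmb2, Psmb7 and Psmd10, and the 7 added Psma6, Psmd1 and Psmd7 to those named. The log2 ratios of Psmb8, Psmb9, Psmb10, Psmd3, Psmd4, Psmd6, Psmd14 and Psmg1 lay above 0 as deposited and below 0 under each of the 4 scalings, except that Psmb8 stayed above 0 under TMM scaling.

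**Figure D1:**
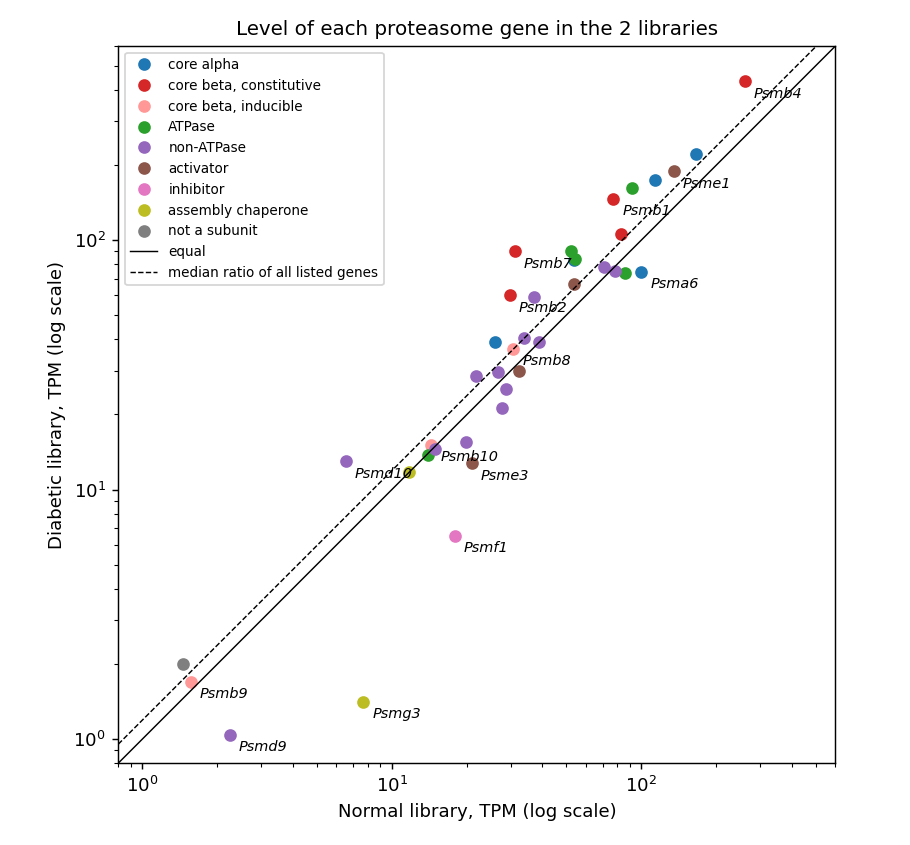
Level of each of the 39 proteasome genes in normal liver (x axis) and in diabetic liver (y axis), in TPM on log scales, 1 point per gene and 1 library per group, coloured by subunit group. The solid line marks equal levels and the dashed line the median ratio of all listed genes. The constitutive beta subunits lie above the solid line, from Psmb3 at 82.6 and 106 TPM to Psmb7 at 31.1 and 90.2 TPM, and Psmf1 and Psmg3 lie far below it.

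The alpha subunits, which form the outer rings and the gate of the core, were mostly higher in diabetic liver. Psma1 was at 53.9 TPM in normal liver and 83.4 TPM in diabetic liver, a 1.55-fold difference (log2 ratio 0.63, 95% interval 0.48 to 0.78). Psma7 was at 113.5 and 174 TPM, with a log2 ratio of 0.62 (0.52 to 0.72). Psma2, at 25.9 and 38.9 TPM, was only just past 1.5-fold, with a log2 ratio of 0.59 (0.37 to 0.80). These 3 genes had overlapping intervals, and none of them stayed past 1.5-fold under TMM scaling. Psma4, the most abundant alpha subunit gene by tags, was at 166 and 222 TPM, with a log2 ratio of 0.42 (0.33 to 0.50).

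Psma6 was the exception among the alpha subunits. It was at 99.8 TPM in normal liver and 74.3 TPM in diabetic liver, with 1026 and 1004 reads. Its log2 ratio of -0.43 had an interval of -0.55 to -0.30, which did not overlap that of any other alpha subunit. Under TMM scaling it was at least 1.5-fold lower. Psma6 was also the 1 member whose RefSeq-matched transcripts ended in different DpnII tags, so that its count may hold 1 or several of them.

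The constitutive beta subunits were the group with the highest ratios. All 5 listed members, Psmb1, Psmb2, Psmb3, Psmb4 and Psmb7, had a higher ratio than the typical gene. Of these, 4 were at least 1.5-fold higher, 80.0% against 34.4% of all listed genes. Under TMM scaling 3 were, 60.0% against 24.0%. The median log2 ratio of the 5 was 0.92, which is 0.67 above that of all listed genes, a difference that the scaling between the libraries does not change. Psmb7, the subunit with trypsin-like activity, was at 31.1 TPM in normal liver and 90.2 TPM in diabetic liver, from 320 and 1218 reads. That is a 2.90-fold difference (log2 ratio 1.53, 95% interval 1.36 to 1.72), and the interval did not overlap that of any other subunit of the 26S particle.

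The other beta subunits named here are structural and do not cut. Psmb2 was at 29.7 and 60.0 TPM, 2.02-fold higher, with a log2 ratio of 1.02 (95% interval, 0.82 to 1.21). Psmb1 was at 77.2 and 146 TPM, 1.89-fold higher, with a log2 ratio of 0.92 (0.80 to 1.04). The intervals of Psmb1 and Psmb2 overlapped, and both genes stayed past 1.5-fold under each of the 4 scalings. Psmb4, whose product helps to join the core together, was the member with the most tags, 2677 and 5840 reads. It was at 260 and 432 TPM, with a log2 ratio of 0.73 (0.66 to 0.80), which lay within 1.5-fold under TMM scaling at 0.48. Psmb3 was lowest of the group at 82.6 and 106 TPM, with a log2 ratio of 0.36 (0.24 to 0.48) that rests on a tag which it has in common with 3 predicted genes.

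**Figure D2:**
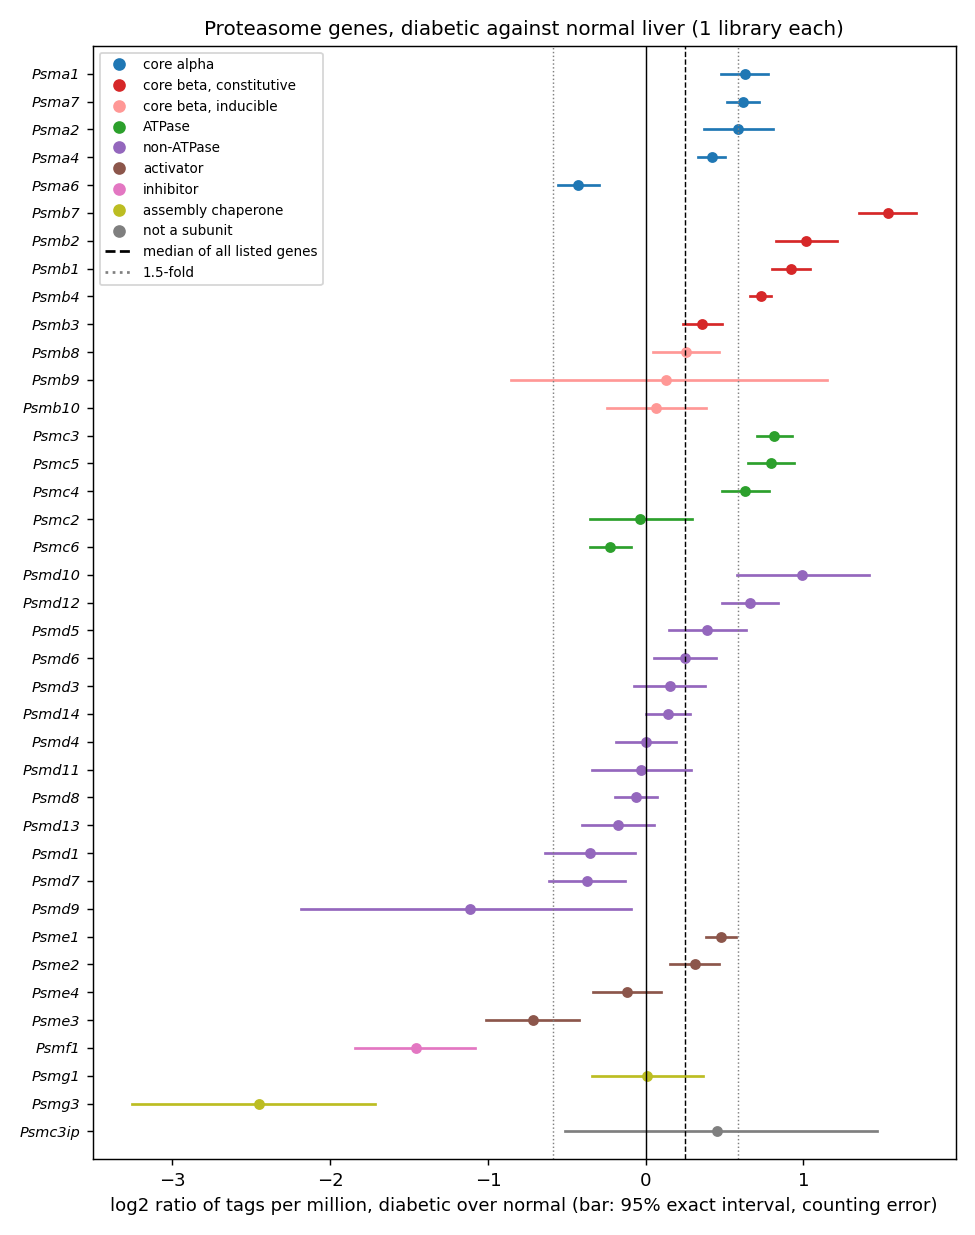
Log2 ratio of each of the 39 proteasome genes, diabetic over normal library, with its 95% exact interval as a bar for counting error only, ordered by ratio within each subunit group. The solid line is 0, the dashed line the median of all listed genes (0.25) and the dotted lines 1.5-fold. Psmb7 is highest at 1.53 and Psmg3 lowest at -2.45, and most non-ATPase subunits lie left of the dashed line.

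The inducible beta subunits replace their constitutive counterparts in cells exposed to interferon and are abundant in immune cells. None of the 3 was 1.5-fold apart between the libraries. Psmb8, which replaces Psmb5, was at 30.7 TPM in normal liver and 36.6 TPM in diabetic liver, so that the log2 ratio was 0.25 (95% interval, 0.05 to 0.46). Psmb10, which replaces Psmb7, was at 14.4 and 15.1 TPM, with a log2 ratio of 0.07 (-0.24 to 0.38). Psmb9, which replaces Psmb6, had only 16 and 23 reads, and its interval of -0.85 to 1.15 leaves a difference of 1.5-fold in either direction undetectable at this depth.

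Because Psmb10 hardly differed while Psmb7 was 2.90-fold higher, the balance of this pair shifted towards the constitutive gene. Of the reads on both genes, Psmb10 held 31.6% in normal liver (95% Wilson interval, 27.6% to 36.0%) and 14.3% in diabetic liver (12.6% to 16.3%). The ratio of Psmb10 to Psmb7 changed by -1.47 on the log2 scale (exact interval, -1.83 to -1.10), whatever the scaling between the libraries. The other pairs could not be compared, since Psmb5 and Psmb6 were not among the listed genes.

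Psmb9, Tap1, Psmb8 and Tap2 follow each other on chromosome 17 in the RefSeq annotation of GRCm38.p6. Tap1 and Tap2 together form the transporter that brings proteasome products to MHC class I. Tap1 was at 10.5 and 14.9 TPM in normal and diabetic liver, so that the log2 ratio was 0.50 (95% interval, 0.16 to 0.85). Tap2 was at 15.3 and 8.22 TPM, with a log2 ratio of -0.89 (-1.26 to -0.53), so the ratios of these neighbours lay on opposite sides of 0. Markers of immune cells differed between the libraries in both directions. Of 11 macrophage markers, 8 were listed, with a summed level of 327 TPM in normal liver and 194 TPM in diabetic liver. At least 1.5-fold lower were 4 and higher 1, 50.0% and 12.5%, against 15.3% and 34.4% of all listed genes. Under TMM scaling 5 were lower and 0 higher, 62.5% and 0, against 23.7% and 24.0%. Most of the difference between the sums lay in C1qa, without which the other 7 summed to 150.03 and 142.95 TPM. That sum holds C1qb, which was higher at 38.1 and 57.8 TPM. Of the 8 markers, C1qa included, 7 had a log2 ratio below 0, and the intervals of 4 lay wholly below 0. Emr1, which defines macrophages, was at 8.95 and 4.37 TPM, Clec4f, which defines Kupffer cells, at 1.46 and 1.11 TPM, and Cd5l, another Kupffer cell gene, at 64.7 and 62.9 TPM. The 4 listed MHC class II genes, which mark antigen presenting cells, summed to 226 and 342 TPM, 2 of them at least 1.5-fold higher and 0 lower. Of 12 markers of T and NK cells 2 were listed, with 3.50 and 2.89 TPM in sum, and of 8 B cell markers 2 were listed, with 5.35 and 3.78 TPM. The part of these cells in the levels of the inducible subunits was not tested, and in whole liver fewer cells of a type and less RNA per cell cannot be told apart.

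The ATPases form the ring of the base that unfolds substrates and threads them into the core. Psmc3 was at 91.7 TPM in normal liver and 161 TPM in diabetic liver, so that the log2 ratio was 0.82 (95% interval, 0.70 to 0.93). Psmc5 was at 52.3 and 90.8 TPM, with a log2 ratio of 0.79 (0.65 to 0.94). Psmc4 was at 54.1 and 83.8 TPM, with a log2 ratio of 0.63 (0.48 to 0.78), and is the gene with the short expected tag. All 3 were at least 1.5-fold higher as deposited and within 1.5-fold under TMM scaling. The median of the 5 ATPases was 0.38 above that of all listed genes.

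Psmc2 and Psmc6 did not share this difference. Psmc2 was at 14.01 and 13.7 TPM, with a log2 ratio of -0.03 (95% interval, -0.35 to 0.29). Psmc6 was at 85.9 and 73.6 TPM, with a log2 ratio of -0.22 (-0.36 to -0.09). In the ring, the products of Psmc4 and Psmc5 are built in as 1 pair and those of Psmc3 and Psmc6 as another. The intervals of Psmc4 and Psmc5 overlapped, whereas those of Psmc3 and Psmc6 lay on opposite sides of 0. Psmc3ip had only 15 and 27 reads, and its interval of -0.51 to 1.47 held 0.

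The non-ATPase subunits of the lid and base were mostly near their level in normal liver, and below the shift of the typical gene. Of the 10 listed, excluding base chaperones, 1 was at least 1.5-fold higher and 0 lower, against 34.4% and 15.3% of all listed genes. Under TMM scaling 0 were higher and 2 lower, against 24.0% and 23.7%. There 2 of 10 lower is near the share of all listed genes. Of the 10, 9 had a log2 ratio below the median of all listed genes. The median of the 10 was -0.01, which is 0.27 below that of all listed genes. The exception was Psmd12, a scaffold subunit of the lid, at 37.3 and 58.9 TPM with a log2 ratio of 0.66 (95% interval, 0.48 to 0.84). Lowest were Psmd7, at 27.6 and 21.3 TPM with a log2 ratio of -0.37 (-0.62 to -0.13), and Psmd1, the large scaffold of the base, at 19.9 and 15.6 TPM with a log2 ratio of -0.35 (-0.64 to -0.07). Both were at least 1.5-fold lower under TMM scaling.

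Psmd14, the enzyme that cuts ubiquitin chains off the substrate, was at 70.7 and 78.0 TPM, with a log2 ratio of 0.14 (95% interval, 0.0039 to 0.28). Its partner in the lid is Psmd7, whose interval did not overlap that of Psmd14. Psmd4, a ubiquitin receptor of the base, was at 38.8 and 38.9 TPM, with a log2 ratio of 0.0017 (-0.19 to 0.19). Psmd3, Psmd6, Psmd8, Psmd11 and Psmd13 had log2 ratios from -0.18 in Psmd13 to 0.25 in Psmd6, and all of these intervals except that of Psmd6 held 0.

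A further 3 genes with non-ATPase symbols encode chaperones that assemble the base and leave it before it is complete, and they differed from each other. Psmd10 (gankyrin), which binds the product of Psmc4, was at 6.52 TPM in normal liver and 12.96 TPM in diabetic liver, 1.99-fold higher (log2 ratio 0.99, 95% interval 0.58 to 1.42). Psmd5 was at 21.8 and 28.6 TPM, with a log2 ratio of 0.39 (0.15 to 0.63). Psmd9 was at 2.24 and 1.04 TPM, with a log2 ratio of -1.11, but with 23 and 14 reads its interval reached from -2.18 to -0.09.

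The assembly chaperones of the core were at or below their level in normal liver. Psmg3, whose product helps to build the alpha ring, had the lowest ratio of all members. It was at 7.69 TPM in normal liver and 1.41 TPM in diabetic liver, from 79 and 19 reads. That is 5.46-fold lower, a log2 ratio of -2.45 (95% interval, -3.26 to -1.71). Psmg1, which acts at the same stage, was at 11.7 and 11.8 TPM, with a log2 ratio of 0.01 (-0.34 to 0.37).

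Activators cap the core in place of the regulatory particle and open its gate without ubiquitin. Psme1 and Psme2 form 1 such cap together, which interferon induces. Psme1 was at 135 TPM in normal liver and 188 TPM in diabetic liver, so that the log2 ratio was 0.48 (95% interval, 0.38 to 0.57). Psme2 was at 53.6 and 66.5 TPM, with a log2 ratio of 0.31 (0.16 to 0.47). The ratio of Psme1 to Psme2 changed by 0.17 on the log2 scale, with an exact interval of -0.02 to 0.35 that held 0. These genes lie near each other on chromosome 14, followed by Rnf31 and then by Irf9, which encodes a factor of the interferon response. Irf9 was at 18.3 and 11.6 TPM, with a log2 ratio of -0.66 (-0.98 to -0.35).

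The remaining activators form caps of their own and were not higher in diabetic liver. Psme3, the nuclear activator, was at 20.9 TPM in normal liver and 12.7 TPM in diabetic liver, 1.64-fold lower with a log2 ratio of -0.72 (95% interval, -1.01 to -0.42). Its interval did not overlap those of the other 3 activators. Psme4, another nuclear activator, was at 32.3 and 29.8 TPM, with a log2 ratio of -0.12 (-0.33 to 0.10).

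Psmf1 encodes PI31, a protein that blocks the core in the test tube. It was at 17.9 TPM in normal liver and 6.51 TPM in diabetic liver, from 184 and 88 reads. That is 2.75-fold lower, a log2 ratio of -1.46 (95% interval, -1.84 to -1.08). Psmf1 and Psmg3 were the members whose intervals lay wholly below 1.5-fold lower.

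Within a library, the share of proteasome reads that a group holds does not depend on the scaling. All proteasome genes except Psmc3ip together had 20264 reads in normal liver and 35945 in diabetic liver. The 5 constitutive beta subunits held 24.4% of them in normal liver (95% Wilson interval, 23.8% to 24.99%) and 31.4% in diabetic liver (30.9% to 31.8%). The 10 non-ATPase subunits of the particle went the other way, from 19.1% (18.6% to 19.7%) to 14.9% (14.6% to 15.3%). Alpha subunits held 23.3% and 22.3%, ATPases 15.1% and 15.9%, activators 12.3% and 11.2%, and inducible beta subunits 2.36% and 2.01% in the same order. The 13 core genes thus took 50.0% of the reads in normal liver and 55.6% in diabetic liver, and the 15 genes of the regulatory particle 34.2% and 30.8%. Each sum leans on its most abundant genes, among the beta subunits on Psmb4.

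**Figure D3:**
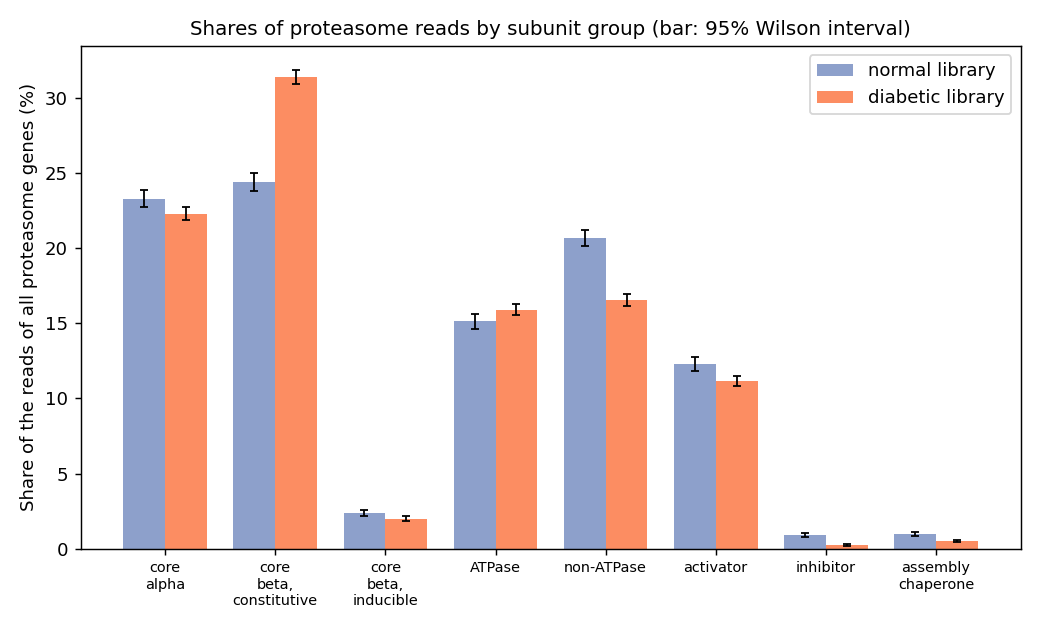
Share of the reads of all proteasome genes that fell on each subunit group, in percent, in the normal and the diabetic library (1 library each), with 95% Wilson intervals that cover counting error. The constitutive beta subunits hold 24.4% and 31.4%, and the non-ATPase group, base chaperones included, 20.7% and 16.5%.

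Genes that work with the proteasome were looked up by lists of known factors. Of 27 proteasome-associated factors and receptors 18 were listed, 9 of them at least 1.5-fold higher and 1 lower (6 and 1 under TMM scaling). That is 50.0% higher and 5.56% lower, against 34.4% and 15.3% of all listed genes, and under TMM scaling 33.3% and 5.56%, against 24.0% and 23.7%. The list had a median log2 ratio that lay 0.30 above that of all listed genes. The transcription factors of this list differed in direction. Nfe2l1, which drives proteasome genes when the proteasome is impaired, was at 19.5 TPM in normal liver and 11.03 TPM in diabetic liver, so that the log2 ratio was -0.82 (95% interval, -1.13 to -0.51). Nfe2l2, which drives antioxidant genes and some proteasome genes, was at 33.4 and 151 TPM, with a log2 ratio of 2.18 (2.02 to 2.35). Ngly1, the enzyme that edits the product of Nfe2l1 into its active form, was at 18.97 and 40.2 TPM, with a log2 ratio of 1.08 (0.84 to 1.33). Uchl5, a deubiquitinase of the regulatory particle, was at 5.06 and 18.6 TPM, with a log2 ratio of 1.88 (1.44 to 2.34). Of the ubiquitin genes and activating enzymes 2 of 6 were listed, Uba1 at -0.25 and Uba6 at 1.19, the second from 10 and 30 reads.

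Antioxidant response genes and heat shock genes, each known to move with proteasome genes under stress, had median log2 ratios on opposite sides of 0. Of 13 antioxidant response genes 8 were listed, with a median log2 ratio of 0.83. Of these 8, 6 were at least 1.5-fold higher and 2 lower, against 34.4% and 15.3% of all listed genes. Under TMM scaling 4 were higher and 2 lower, against 24.0% and 23.7%. There 2 of 8 lower is near the share of all listed genes. Highest was Nqo1 at 2.72 and 22.5 TPM, with a log2 ratio of 3.05 (95% interval, 2.49 to 3.66), and lowest Osgin1 at 1356 and 284 TPM, with -2.25 (-2.31 to -2.20). Of 12 heat shock genes 8 were listed, 0 at least 1.5-fold higher and 5 lower, with a median of -0.75. Hsph1 was lower with a log2 ratio of -1.07 and Hsp90ab1 with -0.84, and both encode chaperones of the cytosol. Under TMM scaling the heat shock counts were the same, 0 higher and 5 lower. The 5 lower genes are 62.5% of the list, against 15.3% of all listed genes as deposited and 23.7% under TMM scaling. For higher, it is 0 against 34.4% and 24.0%.

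MHC class I processing and interferon-induced genes were spread to both sides, with 16 of 23 listed, 3 at least 1.5-fold higher and 5 lower. That is 18.8% higher and 31.2% lower, against 34.4% and 15.3% of all listed genes. Under TMM scaling 3 were higher and 7 lower, 18.8% and 43.8%, against 24.0% and 23.7%. The median log2 ratio of the list was 0.05 and lay below 0 under the other scalings. Ifit3 (-2.15) and Iigp1 (-1.54) were lower, whereas Igtp (1.22) and H2-K1 (0.98) were higher. B2m, the light chain of MHC class I, was at 3533 TPM in normal liver and 2518 TPM in diabetic liver, so that the log2 ratio was -0.49 (95% interval, -0.51 to -0.47), and Irf1 was at 20.7 and 29.2 TPM, with a log2 ratio of 0.50 (0.25 to 0.74).

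Other large complexes were set beside the proteasome. The COP9 signalosome and the translation factor eIF3 are built from the same kinds of subunit as the lid. Of the 9 COP9 genes 1 was at least 1.5-fold higher and 2 were lower (1 and 3 under TMM scaling). That is 11.1% and 22.2%, against 34.4% and 15.3% of all listed genes. Under TMM scaling it is 11.1% and 33.3%, against 24.0% and 23.7%. The median log2 ratio of the COP9 genes was 0.30. Of the 10 listed eIF3 genes 3 were higher and 0 lower, with a median of 0.36, and 30.0% higher is near the 34.4% of all listed genes. Under TMM scaling 1 of the 10 was higher and 1 lower, against 24.0% and 23.7%. The chaperonin CCT, which folds actin and tubulin, had 8 genes with a median of -0.01. Of these 8, 1 was higher and 2 were lower, against 34.4% and 15.3% of all listed genes. Under TMM scaling 0 were higher and 2 lower, against 24.0% and 23.7%. There 2 of 8 lower is near the share of all listed genes. The 19S regulatory particle of the proteasome had 4 of 15 genes higher, 0 lower and a median of 0.0017, near that of CCT. The core had 7 of 13 higher, 0 lower and a median of 0.59, above those of all 3 complexes. Under TMM scaling 0 genes of the regulatory particle were higher and 2 lower, and 3 genes of the core were higher and 1 lower. As deposited, 53.8% of the core and 26.7% of the regulatory particle were higher, against 34.4% of all listed genes. Under TMM scaling 23.1% of the core were higher, near the 24.0% of all listed genes, and 7.69% lower, against 23.7%. Of the regulatory particle 0 were then higher and 13.3% lower. These medians and shares are a description of 2 libraries, and their differences were not tested.

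**Figure D4:**
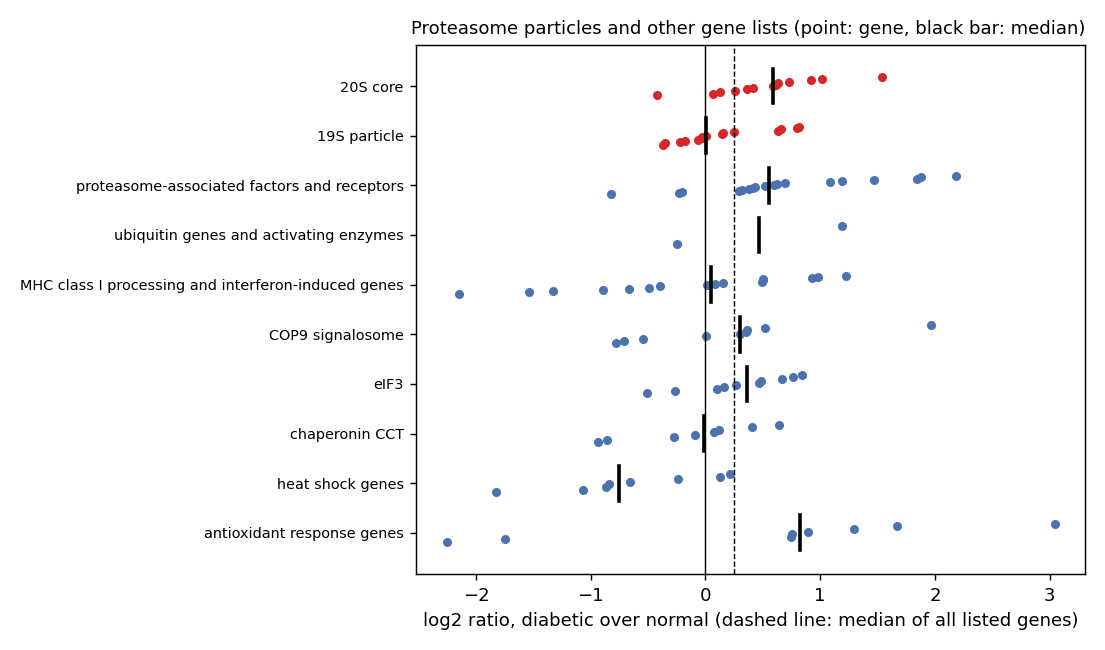
Log2 ratio of each listed gene, diabetic over normal library, for the core and the regulatory particle of the proteasome (red) and for 8 other gene lists (blue), with the median of each list as a black bar. The dashed line is the median of all listed genes. The core has a median of 0.59 and the regulatory particle of 0.0017, the antioxidant response genes lie mostly to the right and the heat shock genes mostly to the left.

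Promoters of 33 members, from 250 bases before to 50 after the RefSeq start (GRCm38.p6), were searched on both strands for the motifs given below. Psmb1, Psmb2, Psmb7, Psmc3, Psmd3 and Psmd7 had no entry. The core of the antioxidant response element, TGACNNNGC, which factors of the Nfe2l1 and Nfe2l2 family bind, was in the promoters of 4 members, 12.1%, against 16.9% of the listed genes with a promoter. These were Psmc6, Psmd9, Psmd12 and Psme4, with log2 ratios from -1.11 to 0.66. The CCAAT box, searched by the letters CCAAT, was in 12 of 33 members, 36.4%, against 42.4% of listed genes. Among the alpha subunits it was in Psma1, Psma2 and Psma7, which were higher in diabetic liver, and also in Psma6, which was lower.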

How the data were processed

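The authors deposited levels as TPM, which here are RPM values, since each gene's tags were divided by the clean tags of the library. DpnII cut the cDNA made from mRNA, and after Illumina sequencing clean tags were matched to RefSeq. The submitters' processing notes name the build mm9, and the aligner is not given in the sources used here. A value of 0.01 TPM stands for no tag, and genes with a mean under 1 TPM had been left out. Whole reads were computed from the equal steps of the values, and all 8513 values above the placeholder in the normal library and 8536 of 8537 in the diabetic library were whole within rounding.

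Ratios were computed from reads over all clean tags, with a gene at 3 reads or fewer set to 3. With 1 library per group no test between conditions was possible, so a gene is called higher or lower at 1.5-fold. Intervals of ratios are exact binomial, those of a pair of genes exact conditional odds ratios, and shares have Wilson intervals. Tags carry no molecular identifiers, so intervals cover counting error only. FDR values rest on a two-sided exact binomial test with Benjamini-Hochberg adjustment over 8551 genes.

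The members and lists were chosen with earlier results of these data known. Values in each library are given for members at least 1.5-fold apart, the cutting subunits, activators, the inhibitor and chaperones, and other members mostly by range. Of other lists, counts, medians and the up to 4 largest differences among genes averaging 10 TPM or more are given, plus preset genes. Uba6, Tap2, Irf9, the immune markers named, the marker sum without C1qa, the ATPase group without Psmc3ip and the exceptions within groups were chosen after their values were seen. Alternatives were 4 scalings (by listed sum, TMM, median ratio and upper quartile), a fold threshold of 2, a minimum mean of 5 TPM, added pseudocounts (0.1 or 1 TPM) and other sets of members. The script was tested on simulated reads. Expected tags came from GENCODE M21 transcripts and promoters from RefSeq. Computations ran in Python 3.11.15 with pandas 2.3.3, scipy 1.17.1 and numpy 2.4.6, and plots in matplotlib 3.10.9.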

Additional observations from a re-analysis of the deposited data

How the results depend on the processing

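The counts of members past 1.5-fold depended on the scaling between the libraries. Under each of the 4 scalings 4 members were higher and 7 lower, and the median log2 ratio of the members was -0.0106 by listed sum, -0.0035 under TMM scaling, -0.0566 under median-ratio scaling and -0.0194 under upper-quartile scaling. With a fold threshold of 2, 2 members were higher. With a minimum mean of 5 TPM, 2 members were lower, since Psmg3 and Psmd9 were then left out. The assembly chaperones, then Psmg1 alone, stood 0.26 below all listed genes (-0.26), and the ubiquitin genes and activating enzymes, then Uba1 alone, at -0.52. Within the 26S particle 0 members were lower as deposited and 3 under TMM scaling. No result changed sign while past its threshold. For counts, medians and pairs, 17 values moved past a range set by counting error or, for counts, by 1.5 times. The other 180 kept to it. Many of these are differences from the median of all listed genes, which no scaling can change, so they do not test the scaling. Of the log2 ratios of single members, 110 values moved and 159 did not. No paired analysis was possible because each group has 1 library. Depth limits Psmb9, Psmd9 and Psmc3ip, each with under 30 reads in both libraries, and a gene with no read could be at up to 0.292 TPM in normal liver and 0.222 TPM in diabetic liver.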

Other observations

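Chains or subunits of other complexes also differed from each other between these libraries. C1q, a complement protein that macrophages make, is built from the chains C1qa, C1qb and C1qc. C1qa was at 176.5 TPM in normal liver and 50.7 TPM in diabetic liver, so that the log2 ratio was -1.80 (95% interval, -1.93 to -1.67), and C1qc was at -1.80 as well. C1qb was at 38.1 and 57.8 TPM, with a log2 ratio of 0.60 (0.42 to 0.78). Of the COP9 signalosome, Cops5, its deubiquitinase-like subunit, was at 20.4 and 79.8 TPM, with a log2 ratio of 1.97 (1.75 to 2.19), above the other 8 genes, the next of which, Cops3, was at 0.52. These genes were chosen after their values were seen.

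Over the 39 proteasome genes the log2 ratio ranked with the mean level (Spearman's rho 0.47), and over all 8551 listed genes it hardly did (rho 0.06). The points share the same 2 libraries and the same diabetic values enter both measures. With the distance of the expected tag from the 3′ end, 11 to 1334 bases, rho was 0.20 over the 39 genes.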
